A study of Mus musculus with 30 samples.

Results

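The inducible heat shock genes are a set of 10 genes, *Hspa1a*, *Hspa1b*, *Hspa8*, *Hsph1*, *Dnajb1*, *Hspb1*, *Hspe1*, *Hspd1*, *Hsp90aa1* and *Bag3*, whose transcripts are read as a sign of unfolded protein or of handling stress. They were taken by symbol from 2 tables of 55573 genes each, one for the retinal pigment epithelium (RPE) and one for bone marrow-derived macrophages (BMDMs), and each symbol matched 1 row in each table. RPE RNA came from mice at postnatal day 25 (P25), with 6 libraries of B6 WT, 6 of *Mertk*-/-V1 and 3 each of *Mertk*-/-V2 and *Mertk*-/-V3. BMDM RNA came from 3 biological replicates of each of the same genotypes, 30 libraries of polyA RNA in all. The labels give C57BL/6J as the strain of all samples. According to the methods of the study, *Mertk*-/-V1 carries the deletion of 1 kinase-domain exon made in 129P2 ES cells, keeps a neomycin cassette and, after backcrossing to C57BL/6J, keeps a 129P2 segment of chromosome 2. In *Mertk*-/-V2, a different kinase-domain exon was excised from a floxed allele made in C57BL/6NJ embryos, with Rosa26-ERT2-Cre bred out afterwards. In *Mertk*-/-V3, a pair of upstream exons was deleted with CRISPR in C57BL/6NJ eggs, and both new lines have a mixed C57BL/6J and C57BL/6NJ background. The knockouts are written V1, V2 and V3 from here on. The RPE was shaken off the opened posterior eyecup in an RNA-stabilizing solution on ice with no culture, while macrophages were grown from bone marrow in L929-conditioned medium. Each genotype is 1 mouse line, so genotype and line cannot be told apart.

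Heat shock genes are switched on by heat shock factors, chiefly HSF1, which is held inactive by chaperones and is released when unfolded proteins take those chaperones up. The active factor binds inverted repeats of the triplet GAA, called heat shock elements, and drives HSP70, HSP40, HSP90, HSP60 and small heat shock proteins, which refold or hold client proteins. Some family members, such as *Hspa8* and *Hsp90ab1*, are abundant in unstressed cells, whereas *Hspa1a* and *Hspa1b* are low in unstressed cells and rise within minutes of heat, tissue dissection or proteasome inhibition. The RPE takes up shed photoreceptor outer segments every day, and MERTK is the receptor tyrosine kinase that triggers their engulfment there and of apoptotic cells by macrophages.

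Reads on genes ran from 14137666 to 34124049 per RPE library and from 16629659 to 25653814 per BMDM library. All 11 RPE markers were detected in the RPE libraries, and all 8 macrophage markers in the BMDMs, where *Rpe65*, *Lrat*, *Ttr*, *Tyr* and *Otx2* had 0 reads in each library. Of the 11 RPE markers, 3 or 4 had a mean of at least 10 in each BMDM genotype, with sums of 1069 to 1370. The RPE libraries also held other tissue. Summed rod photoreceptor markers (10 genes) ran from 36196 to 894609 normalised reads over the RPE libraries and summed lens markers (10 genes) from 4157 to 226407. Summed macrophage markers ran from 5501 to 12697 there, and all 8 had a mean of at least 10 in every RPE genotype. *Mertk* had a normalised read count of 3202 ± 454.4 (SD, n = 6) in the RPE of B6 WT, 1177 ± 294.9 (n = 6) in V1 and 851.6 ± 356.6 (n = 3) in V3. It was not lower in V2, with 4229 ± 945.0 (n = 3) in RPE and 3567 ± 30.69 in BMDMs against 2648 ± 233.2 in B6 WT BMDMs (n = 3 each). The log2 difference of V2 from B6 WT was 0.39 ± 0.25 in RPE (limma adjusted p = 0.954) and 0.43 ± 0.06 in BMDMs (limma adjusted p = 0.00129). Reads were not split by exon, so the gene-level count is no check of the V2 label. The cause of the V2 level was not tested.

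The promoters show what members share before any level is measured. RefSeq windows (GRCm38.p6) were available for 8 of the 10 genes, those other than *Hspa8* and *Hsp90aa1*. The 250 bases before each start site were searched on both strands for 2 head-to-head or tail-to-tail units, GAANNTTC or TTCNNGAA. At least 1 window of 6 of these 8 genes held one, as did 14.5% of 27025 genes (12.8% of 32851 promoters), and *Hspe1* and *Hspd1* are counted for the same stretch. Another alternating unit 2 bases further on was present for 2 genes, *Hspe1* and *Hspd1*, against 0.466% of promoters, and these 2 genes share one divergent promoter. The windows of *Dnajb1* and *Bag3* did not contain these letters.

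The windows of *Hspa1a* (chr17:34972157-34972406, minus strand) and *Hspa1b* (chr17:34959239-34959488, minus strand) are shown because their transcripts are near-copies. They are identical at 247 of 250 positions, and the substitutions, with the *Hspa1a* base first and positions counted from 1 at the 5′ end, are C44T, T47C and T249G. That of *Hspb1* (chr5:135887669-135887918, plus strand) is shown because that gene ranged most widely in RPE. All are printed 5′ to 3′ with the matched units in capitals.
Hspa1a: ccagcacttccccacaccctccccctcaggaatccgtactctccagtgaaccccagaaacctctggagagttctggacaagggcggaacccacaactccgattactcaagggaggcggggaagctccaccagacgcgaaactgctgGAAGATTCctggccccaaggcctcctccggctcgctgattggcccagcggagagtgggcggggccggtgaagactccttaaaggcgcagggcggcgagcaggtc
Hspa1b: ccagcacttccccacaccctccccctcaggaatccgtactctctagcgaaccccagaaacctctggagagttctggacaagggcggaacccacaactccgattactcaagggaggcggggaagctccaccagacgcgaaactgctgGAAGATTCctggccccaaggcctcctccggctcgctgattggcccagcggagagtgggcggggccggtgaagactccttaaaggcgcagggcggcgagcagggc
Hspb1: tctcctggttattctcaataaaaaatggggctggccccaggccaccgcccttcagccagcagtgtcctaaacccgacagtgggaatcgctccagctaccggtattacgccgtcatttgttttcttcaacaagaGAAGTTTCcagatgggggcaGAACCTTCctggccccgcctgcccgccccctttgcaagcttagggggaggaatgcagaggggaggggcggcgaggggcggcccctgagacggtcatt

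For *Hspe1* and *Hspd1* the 30 bases around the match (chr1:55088053-55088082, plus strand) are shown, which in the GENCODE annotation lie in an exon of *Hspd1*, and for *Hsph1* 30 bases (chr5:149636351-149636380, minus strand), of which 26 lie in an exon of *Hsph1*. The *Hspe1* match holds overlapping units over 18 bases and is the one with this additional unit.
Hspe1: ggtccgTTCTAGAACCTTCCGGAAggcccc
Hsph1: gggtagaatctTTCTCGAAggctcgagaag

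Some of the 10 transcripts cannot be fully told apart from other genes by short reads. Of the 100-base windows of *Hspa1a* transcripts in GENCODE, 47.1% also occur in *Hspa1b*, and 49.9% of those of *Hspa1b* occur in *Hspa1a*. Exons of *Hspa1a* (chr17:34969190-34972156) also overlap *Gm20481* on the opposite strand. Windows found in transcripts of any other gene, on either strand, made up 56.5% for *Hspa1a*, 44.0% for *Hspb1*, 38.0% for *Hsp90aa1*, 28.5% for *Hspa8*, 23.9% for *Hspd1* and 11.0% for *Hspe1*. *Hsph1*, *Dnajb1* and *Bag3* shared none. Exons of *Hspe1* and *Hspd1* overlap on opposite strands, and whether reads were counted by strand is not given in the sources used here. The split between *Hspa1a* and *Hspa1b* and the values of the other genes with shared windows are therefore uncertain, and a test on their summed reads is given beside the separate ones.

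Levels were compared between genes as RPKM, reads per kb of exon scaled to the reads on genes of the library. In RPE, *Hsp90aa1*, the stress-inducible cytosolic HSP90, was the highest, with a median of 364.1 RPKM over 18 libraries (range 303.0 to 421.4). *Hspa8*, the constitutive cytosolic HSP70 that uncoats clathrin vesicles, followed with 263.4 (216.7 to 301.3), and the ranges of these top 2 genes did not overlap. The neighbours *Hspb1* (57.35), *Hspd1* (55.88), *Hspa1b* (31.71), *Hspe1* (25.40), *Bag3* (18.79) and *Dnajb1* (18.30) each overlapped the next in their range over libraries, so their order is not fixed. *Hsph1* (8.737) and *Hspa1a* (8.135) were the lowest, and both lay below every library of *Dnajb1*. In BMDMs the order was different at both ends. *Hspa8* led with a median of 386.8 RPKM over 12 libraries, and *Hspd1* (92.79) and *Hsp90aa1* (90.49) followed and overlapped each other. *Hspe1* (45.80), *Bag3* (25.21), *Dnajb1* (15.76) and *Hsph1* (6.938) stood apart from one another with no overlap. *Hspa1b* (0.4281), *Hspa1a* (0.1829) and *Hspb1* (0.04601) were at the bottom. The tables were normalised separately and tissue is confounded with culture, so no test was made between them.

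**Figure D1:**
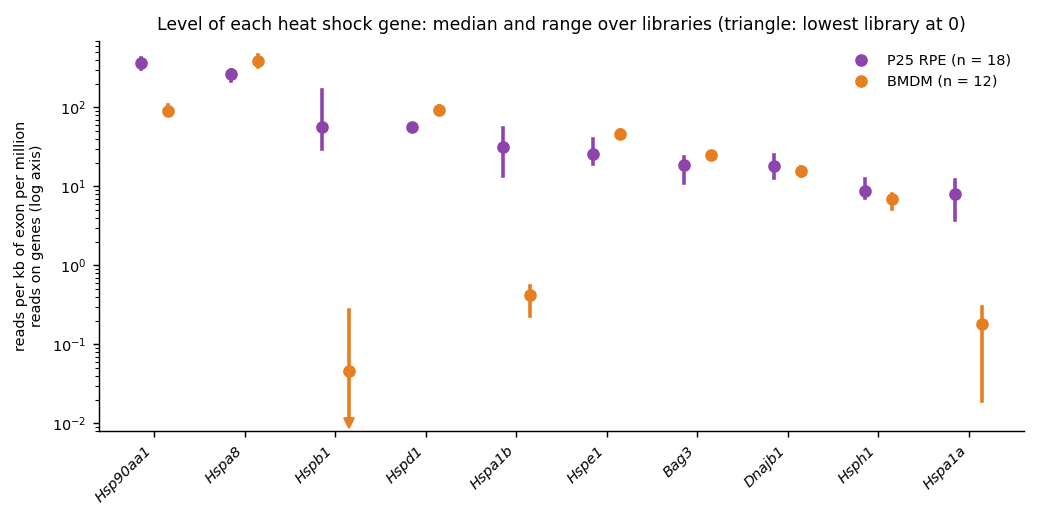
Level of each heat shock gene in RPKM (log axis), with the median as a point and the range over libraries as a line, for P25 RPE (18 libraries) and BMDMs (12 libraries). The medians of *Hspa1a*, *Hspa1b* and *Hspb1* lie between 8.135 and 57.35 in RPE and below 1 in BMDMs, while those of *Dnajb1*, *Hsph1* and *Bag3* lie close together in the 2 tissues.

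In RPE no heat shock gene differed between any *Mertk* knockout and B6 WT at an adjusted p under 0.05 (limma over 18832 genes). The count was 0 of 10 each time, where for V1, V2 and V3 the share of all genes called in either direction was 0.388, 0.0690 and 0.0690%, respectively. At an unadjusted p under 0.05 there were 0, 1 and 2 genes, and edgeR and DESeq2 also called 0 in each comparison. Array quality weights, which trust deviant libraries less, gave 0, 2 and 8 calls and the replicate number as a block 0, 1 and 6, but these settings also called 0.802, 4.57 and 66.9% and 0.696, 3.75 and 29.8% of all genes. Set against V2 and V3 averaged, V1 again had 0 of 10 (0.207% of all genes), with 2 genes at an unadjusted p under 0.05, and weights gave 5 and the block 4, where 28.9 and 12.4% of all genes were called. The median log2 difference of the 10 genes from B6 WT was -0.06 for V1, -0.04 for V2 and -0.27 for V3, beside medians of 0.017, 0.020 and -0.008 over all genes.

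The inducible HSP70 genes had the widest log2 differences from B6 WT, in V2 and V3. *Hspa1a* had a normalised read count of 395.6 to 1003 in B6 WT RPE (median 659.6, n = 6) and 460.4 to 779.0 in V1 (median 640.3, n = 6). Its 3 V2 libraries had 348.1, 389.5 and 487.7, and its 3 V3 libraries 592.4, 268.1 and 330.1. V2 and V3 lay low but overlapped B6 WT, where 1 of 6 libraries had 395.6. The log2 difference from B6 WT was -0.67 ± 0.26 (SE) in V2 (limma adjusted p = 0.838), -0.78 ± 0.26 in V3 (limma adjusted p = 0.449) and -0.04 ± 0.21 in V1 (limma adjusted p = 0.979). *Hspa1b* (chr17:34956436-34959238) followed it. It ran from 1169 to 4246 in B6 WT (median 2806) and from 1290 to 4184 in V1 (median 2696). The V2 libraries had 1031, 1340 and 2148, the V3 libraries 2772, 1025 and 1222, and all 4 genotypes overlapped. The pair summed gave -0.77 ± 0.39 in V2 (limma adjusted p = 0.926) and -0.74 ± 0.39 in V3 (limma adjusted p = 0.458).

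Between V1 and the mean of the other knockouts *Hspa1a* differed by 0.68 ± 0.21 on the log2 scale, which did not pass (limma adjusted p = 0.365). Without replicate 1 of V3, which had the highest level of its group, the difference was 0.85 (limma adjusted p = 0.0498).

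Constitutive and other cytosolic chaperones differed less. *Hspa8* (chr9:40800984-40810087) had 25347 to 34609 normalised reads in B6 WT and 21252 to 32209 in V1. It had 34631, 30238 and 30306 in V2 and 26784, 26067 and 30524 in V3, inside or at the edge of the B6 WT range. *Dnajb1* (chr8:83608193-83612653), the HSP40 that delivers clients to HSP70, ranged from 1113 to 2183 in B6 WT and from 1323 to 2139 in V1. It had 1537, 1402 and 1670 in V2 and 1687, 970.2 and 1288 in V3. *Bag3* (chr7:128523616-128546981), the HSP70 co-chaperone that steers clients to autophagy, had 993.7 to 1682 in B6 WT and 713.1 to 1631 in V1, with the other knockouts between 1013 and 1332. The widest log2 difference of these genes from B6 WT was -0.32 ± 0.21 for *Dnajb1* in V3 (limma adjusted p = 0.530).

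*Hspb1* (chr5:135887919-135889563), the small heat shock protein HSP25 that holds unfolded protein and binds actin, ranged from 773.9 to 4668 over all RPE libraries, a 6.03-fold range. The highest value, 4668, came from V1 replicate 1, and the other V1 libraries had 773.9 to 2270, inside or just below the B6 WT range of 891.6 to 2528. In V3 the 3 libraries had 1267, 892.8 and 940.9, in the lower part of the B6 WT range, and the log2 difference was -0.62 ± 0.46 (limma adjusted p = 0.560).

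The chaperonin pair of the mitochondrial matrix, *Hspd1* (HSP60, chr1:55077835-55088243) and its lid *Hspe1* (HSP10, chr1:55088132-55091307), parted in spread. *Hspd1* varied by 1.29-fold over the 18 libraries, from 3205 to 4128, and its coefficient of variation of 6.72% was above that of 3.10% of 13093 genes with a mean of at least 100. *Hspe1* varied 2.14-fold. It had 829.5 to 1143 in B6 WT (median 1045), 1133, 1087 and 1519 in V2, and 827.7, 709.5 and 783.5 in V3. Its V3 libraries lay below all 6 B6 WT libraries, which held for 1.57% of all genes, with a log2 difference of -0.37 ± 0.17 (limma adjusted p = 0.449).

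*Hsp90aa1* (chr12:110690605-110702728) and *Hsph1* (chr5:149614287-149636376), the HSP110 nucleotide exchange factor of HSP70, had narrow ranges of 28456 to 44272 and 1458 to 2160. *Hsph1* was the one member with V3 libraries all above the B6 WT mean, at 2160, 1728 and 1808 against 1683 ± 146.0 (n = 6). The log2 difference of 0.17 ± 0.11 did not pass (limma adjusted p = 0.504).

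**Figure D2:**
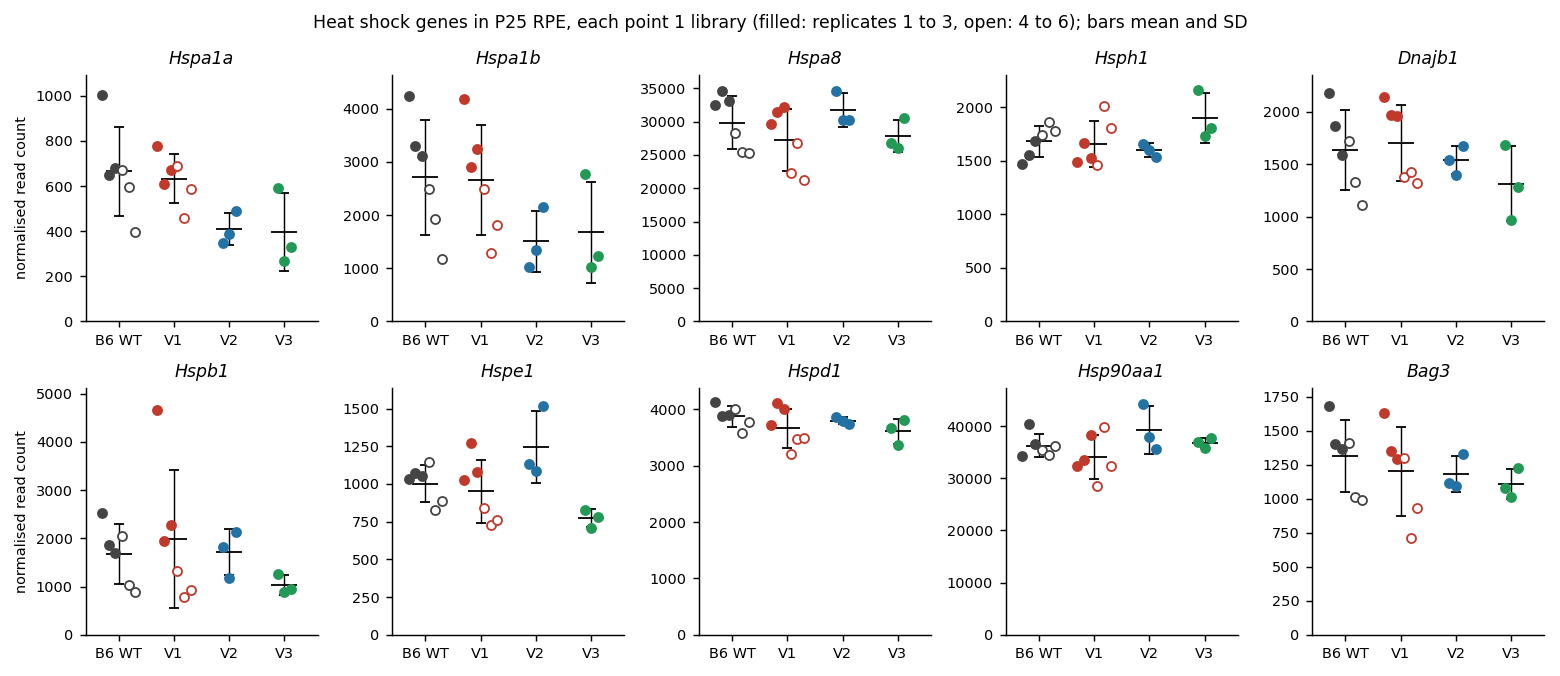
Normalised read count of each heat shock gene in the 18 P25 RPE libraries by genotype (linear axis from 0), with the group mean and SD as bars, filled points for replicates 1 to 3 and open points for replicates 4 to 6. For *Hspa1b* and *Hspa8* the filled points lie above the open ones in both B6 WT and V1, and for *Hsp90aa1* they do not.

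The spread within B6 WT and V1 RPE followed the replicate number. Replicates 1 to 3 were higher than 4 to 6 in both genotypes for most heat shock genes. The labels number the libraries as biological replicates and do not say what sets the higher numbers apart, nor whether V2 and V3 belong with either set. With B6 WT and V1 in one model, 6 of 10 genes were lower in replicates 4 to 6 and 0 were higher (limma adjusted p under 0.05). Among all genes 21.7% were lower and 18.9% higher. Same-numbered B6 WT and V1 libraries deviated together, but differently numbered libraries of one set could do so as much. B6 WT replicate 1 had correlations of 0.612, 0.624 and 0.665 with V1 replicates 1, 2 and 3. These values include the difference between sets, so they do not show pairing by number. With the set in the model the correlation within a number was 0.145. Same-numbered libraries were also treated as pairs, a step added after the data were seen. The number as a random block kept 6 of 10 lower (18.6% of all genes lower), and averages of same-numbered libraries, 3 against 3, left 0 of 10 and 0% of all genes, with adjusted p from 0.0589 to 0.0960 for the 6 genes. The median log2 difference of the 10 genes was -0.38, against -0.005 for all genes.

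*Hspa1b* had 4246, 3294 and 3116 normalised reads in B6 WT replicates 1 to 3 and 2496, 1933 and 1169 in replicates 4 to 6. In V1 the values were 4184, 2911 and 3242, then 2482, 1290 and 1806. The sets did not overlap in either genotype, nor pooled, which held in the same direction for 6.13% of all genes, and the log2 difference was -0.95 ± 0.20 (limma adjusted p = 0.00745). *Hspa8* separated in the same way, with 32462, 34609 and 33025 then 28271, 25456 and 25347 in B6 WT, and 29632, 31378 and 32209 then 22267, 26859 and 21252 in V1 (log2 difference -0.38 ± 0.09, limma adjusted p = 0.00856). These 2 genes were the only members whose pooled sets did not overlap.

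*Hspb1* differed by -1.09 ± 0.28 (limma adjusted p = 0.0117), with means of 2029 and 1327 in B6 WT and 2964 and 1003 in V1 for replicates 1 to 3 and 4 to 6. *Dnajb1* differed by -0.50 ± 0.11 (limma adjusted p = 0.00761), *Bag3* by -0.48 ± 0.14 (limma adjusted p = 0.0212) and *Hspe1* by -0.34 ± 0.10 (limma adjusted p = 0.0211). *Bag3* lost its call without V1 replicate 1 (-0.43, limma adjusted p = 0.0508). The near-copies *Hspa1a* and *Hspa1b* differed in call, since *Hspa1a* had -0.38 ± 0.16 (limma adjusted p = 0.0765), while their summed reads had -0.84 ± 0.19 (limma adjusted p = 0.00801).

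*Hspd1* (-0.14 ± 0.06), *Hsp90aa1* (-0.06 ± 0.10) and *Hsph1* (0.18 ± 0.08) did not pass. *Hsph1* was the one member with a positive difference, and it passed without V1 replicate 4 (0.24, limma adjusted p = 0.00992), as did *Hspa1a* (-0.45, limma adjusted p = 0.0380). *Hspd1* passed without B6 WT replicate 4 (-0.17, limma adjusted p = 0.0317), with weights (limma adjusted p = 0.0477), in edgeR (adjusted p = 0.0432) and in DESeq2 (adjusted p = 0.0271). The edgeR and DESeq2 fits each called 7 of 10 genes lower, where 21.4 and 23.0% of all genes were lower. With 1 genotype at a time and 3 libraries a set, 0 of 10 genes passed in B6 WT and 0 in V1, but neither did any of the 18832 genes tested (0%), so these fits say nothing about the heat shock genes. The difference for *Hspa1b* was then -0.98 ± 0.27 in B6 WT (limma adjusted p = 0.115) and -0.92 ± 0.26 in V1 (limma adjusted p = 0.0742).

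Markers of other tissues moved with the same sets. All 10 rod markers were higher in replicates 4 to 6 (median log2 difference 2.06), and the rod sum was 36196 to 127563 and then 138017 to 354004 in B6 WT, and 65615 to 97017 and then 141835 to 894609 in V1. Lower were 8 of 11 RPE markers (median -0.67), 5 of 10 lens markers (-1.88), 5 of 5 blood markers (-2.02), 3 of 6 skeletal muscle markers (-1.64) and 3 of 8 macrophage markers (-0.32), while 2 of 6 endothelial markers were higher. These counts stand beside 21.7% of all genes lower and 18.9% higher. No marker of these lists had 0 reads in a whole genotype. Less RNA per RPE cell and fewer RPE cells in a library cannot be told apart in such bulk samples, and the part of these tissues in the heat shock values was not tested.

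Immediate early genes, which dissection can induce, moved with them, 9 of 18 lower in replicates 4 to 6 and 0 higher (median -0.65). The shares of all genes were 21.7% lower and 18.9% higher. *Jun* fell by 0.72 on the log2 scale (limma adjusted p = 0.00725) and *Dusp1*, a MAP kinase phosphatase, fell by 1.26 (limma adjusted p = 0.00725). The 2 cold-inducible RNA-binding proteins went apart, *Rbm3* with -0.39 ± 0.08 (limma adjusted p = 0.00748) and *Cirbp* with 0.36 ± 0.12 (limma adjusted p = 0.0287). Of the transcription factors, *Hsf1* held a level of 717.8 to 1069 normalised reads over B6 WT and V1 and was not called, and *Hsf2* was higher in replicates 4 to 6 (0.50 ± 0.14, limma adjusted p = 0.0154).

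Other chaperone lists were counted in the same way. Of the ER chaperones and unfolded protein response genes 11 of 17 were lower and 1, *Ddit3*, was higher. *Herpud1*, an ER degradation factor, had -0.36 ± 0.06 and *Manf* -0.42 ± 0.09 (limma adjusted p = 0.00725 and 0.00737). Of the HSP90 list 6 of 14 were lower (*Unc45a*, a myosin and HSP90 co-chaperone, -0.22 ± 0.05), of the TRiC list 5 of 9 (*Cct3*, a chaperonin subunit, -0.26 ± 0.06), of the mitochondrial list 3 of 9 (*Grpel1*, the exchange factor of mitochondrial HSP70, -0.34 ± 0.07), and of the small heat shock proteins 2 of 7 (*Hspb8* -0.48 ± 0.13 and *Cryab*, also a lens crystallin, -1.24 ± 0.41). In the list of other HSP70, HSP110 and J proteins 4 of 16 were higher, beside 18.9% of all genes (*Hspa12a* by 1.83 ± 0.40, *Dnajb5* by 0.75 ± 0.20, *Hspa12b* and *Hspa4l*) and 0 lower. The counts of lower genes stand beside 21.7% of all genes.

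**Figure D3:**
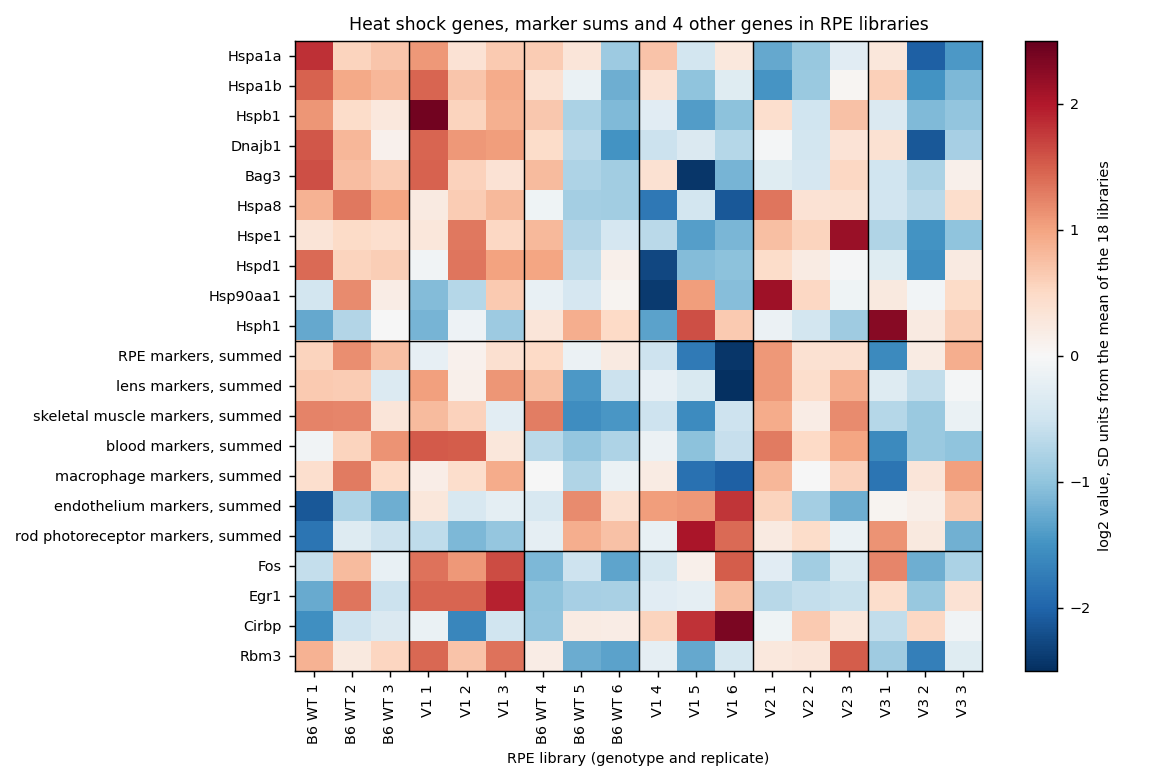
Log2 value of each heat shock gene, of summed marker lists and of 4 other genes in each RPE library, in SD units from the mean of the 18 libraries (colour scale), with columns grouped by genotype and by replicates 1 to 3 and 4 to 6. *Hspa1b* lies between 0.69 and 1.48 in the 6 B6 WT and V1 libraries of replicates 1 to 3 and between -1.21 and 0.37 in replicates 4 to 6, while the rod sum is below 0 in the first and above 0.7 in the last 2 columns of each later set.

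Because B6 WT spans both sets, the comparison of V2 and V3 with it depends on which B6 WT libraries are used. With only replicates 1 to 3 of B6 WT and V1 in the model, 4 of 10 genes were lower in V3, where 14.2% of all genes were lower and 7.46% higher, namely *Hspa1a* (-1.02 ± 0.27, limma adjusted p = 0.0248), *Hspa1b* (-1.22 ± 0.36, limma adjusted p = 0.0350), *Hspe1* (-0.45 ± 0.13, limma adjusted p = 0.0336) and *Bag3* (-0.42 ± 0.13, limma adjusted p = 0.0359). With only replicates 4 to 6 of both 0 of 10 passed, where 0.0159% of all genes were called in either direction. The calls thus fell over all genes as well. *Hspa1a* then differed by -0.53 ± 0.30 (limma adjusted p = 1.000). V2 had 0 calls against either set, where 0.159 and 0.0956% of all genes were called. *Hspa1b* differed by -1.29 ± 0.36 in V2 against replicates 1 to 3 (limma adjusted p = 0.105) and by -0.31 ± 0.43 against 4 to 6. For V1 the sets are balanced. There 0 of 10 passed within replicates 1 to 3, within 4 to 6, or when the model also carried the set. The shares of all genes called were 0.0690, 0.0637 and 0.738%. *Hspa1b* differed by -0.05 ± 0.36 and 0.01 ± 0.43 within the sets. Summed lens, blood and muscle markers were lower in V3 (39601 to 70811, 4310 to 8032 and 1970 to 3881) than in V2 (115375 to 222662, 30412 to 63450 and 5211 to 12627). Their part in these values was not tested.

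In BMDMs *Hspa8*, *Dnajb1*, *Hsph1*, *Hsp90aa1* and *Hspd1* were lower in V1 and V2, and *Hsp90aa1* and *Hspd1* in V3, with log2 differences from -0.42 to -0.14. Of the 10 genes 9 passed the filter on low values. In V1 5 of 9 were lower than in B6 WT and 0 higher, against 3.15% of all 13420 genes lower and 3.92% higher. V2 had 5 of 9 lower (2.36% of all genes) and V3 had 2 of 9 (0.633%), again with 0 higher (2.24 and 0.537% of all genes). These comparisons share the 3 B6 WT libraries. The median log2 difference of the 9 genes was -0.24, -0.25 and -0.06, beside -0.005, -0.001 and 0.005 for all genes, and 0 of 9 also reached the fold threshold of the study, 1.25 on the log2 scale, which 0.425, 0.253 and 0.156% of all genes did.

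*Hspa8* gave the clearest separation. It had 39263, 39338 and 38050 normalised reads in B6 WT, 32034, 30454 and 32041 in V1, 28517, 30129 and 28759 in V2 and 36339, 38065 and 36893 in V3. V1 and V2 lay below every library of B6 WT and V3. The log2 difference from B6 WT was -0.30 ± 0.05 in V1 (limma adjusted p = 0.00212) and -0.42 ± 0.05 in V2 (limma adjusted p = 0.000277), a level 19.0 and 25.1% lower on the fitted scale, and -0.07 ± 0.05 in V3 (limma adjusted p = 0.514). It kept its call in all 14 alternatives that used the adjusted p alone in V1 (adjusted p from 2.67e-12 to 0.0192) and in all 14 in V2 (3.99e-23 to 0.0266).

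The partners of HSP70 followed in the same 2 genotypes. *Dnajb1* had 1124, 1118 and 1108 in B6 WT, 903.1, 966.8 and 977.4 in V1, 906.1, 968.2 and 969.9 in V2 and 1102, 1091 and 1094 in V3. *Hsph1* had 1182, 1164 and 1072, then 870.2, 888.8 and 858.2, then 771.5, 784.6 and 1012, then 1034, 1054 and 1046, in the same order of genotypes. For both genes all libraries of V1 and V2 lay below those of B6 WT, and so did those of V3, by a narrower margin. The log2 difference of *Dnajb1* was -0.24 ± 0.05 in V1 (limma adjusted p = 0.0118) and -0.24 ± 0.05 in V2 (limma adjusted p = 0.0157). That of *Hsph1* was -0.38 ± 0.08 (limma adjusted p = 0.0160) and -0.42 ± 0.08 (limma adjusted p = 0.0145). In V3 the differences of -0.03 ± 0.05 and -0.12 ± 0.08 did not pass (limma adjusted p = 0.829 and 0.508).

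*Hsp90aa1* and *Hspd1* were lower in all 3 knockouts. *Hsp90aa1* had 8266, 8382 and 8586 in B6 WT, 7150, 7271 and 7256 in V1, 6793, 7019 and 7447 in V2 and 6796, 7405 and 7340 in V3, with no overlap between B6 WT and any knockout. Its log2 difference was -0.22 ± 0.04, -0.25 ± 0.04 and -0.23 ± 0.04 (limma adjusted p = 0.0124, 0.00934 and 0.0288). *Hspd1* had 5690, 5567 and 5513 in B6 WT, 5050, 5056 and 5083 in V1, 4875, 4933 and 4891 in V2 and 4585, 5033 and 4848 in V3. The B6 WT libraries were again the highest, and the differences were -0.14 ± 0.04, -0.19 ± 0.04 and -0.21 ± 0.04 (limma adjusted p = 0.0429, 0.0173 and 0.0194). The call of *Hsp90aa1* in V3 was lost whichever library of the compared groups was left out (limma adjusted p from 0.0527 to 0.141). So was that of *Hspd1* in V1 (limma adjusted p from 0.0518 to 0.168).

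*Hspe1* did not pass, with 1484 ± 59.27 (SD, n = 3) in B6 WT, 1304 ± 71.98 in V1, 1319 ± 90.28 in V2 and 1443 ± 75.94 in V3, although V1 and V2 did not overlap B6 WT. Non-overlap with lower values was seen for 6 of 9 genes in V1, 7 in V2 and 4 in V3, against 15.4, 12.7 and 13.2% of all genes. *Bag3* was level, at 1326 ± 35.23, 1288 ± 55.22, 1279 ± 68.10 and 1372 ± 33.03 (n = 3 each).

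The inducible HSP70 genes were close to the limit of counting. *Hspa1a* had 10.69, 15.49 and 18.56 normalised reads in B6 WT, 1.174, 4.999 and 16.87 in V1, 6.065, 8.068 and 4.750 in V2 and 13.11, 11.73 and 17.68 in V3. *Hspa1b* had 14.65 to 30.97 in B6 WT, 13.00 to 27.00 in V1, 15.77 to 23.75 in V2 and 24.91 to 27.31 in V3. Only the V2 libraries of *Hspa1a* lay below those of B6 WT with no overlap, and neither gene passed. The log2 difference of *Hspa1a* was -1.34 ± 0.58 in V1 (limma adjusted p = 0.181) and passed without V1 replicate 3 (-2.11, limma adjusted p = 0.0402). The summed pair differed by -0.63 ± 0.29 in V1 (limma adjusted p = 0.213). *Hspb1*, with at most 5.872 normalised reads in a library and 0 in 5 of 12, was under the filter and was not tested.

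The counts in BMDMs rested on 3 libraries a group and moved when 1 was left out. In V1 the count of 5 became 1 when B6 WT replicate 2 was left out, 2 when B6 WT replicate 1 or V1 replicate 1 was, and 4 for any of the other 3. In V2 it became 2 without B6 WT replicate 1 or 2, and was 4 or 5 otherwise. A model of only B6 WT and V2 gave 1, and it called 0.224% of all genes lower in place of 2.36%. In V3 the count of 2 became 1 without B6 WT replicate 3 or V3 replicate 2 and 0 without any of the other 4. The adjusted p of the genes lost ran from 0.0503 to 0.168, and their log2 differences stayed negative.

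**Figure D4:**
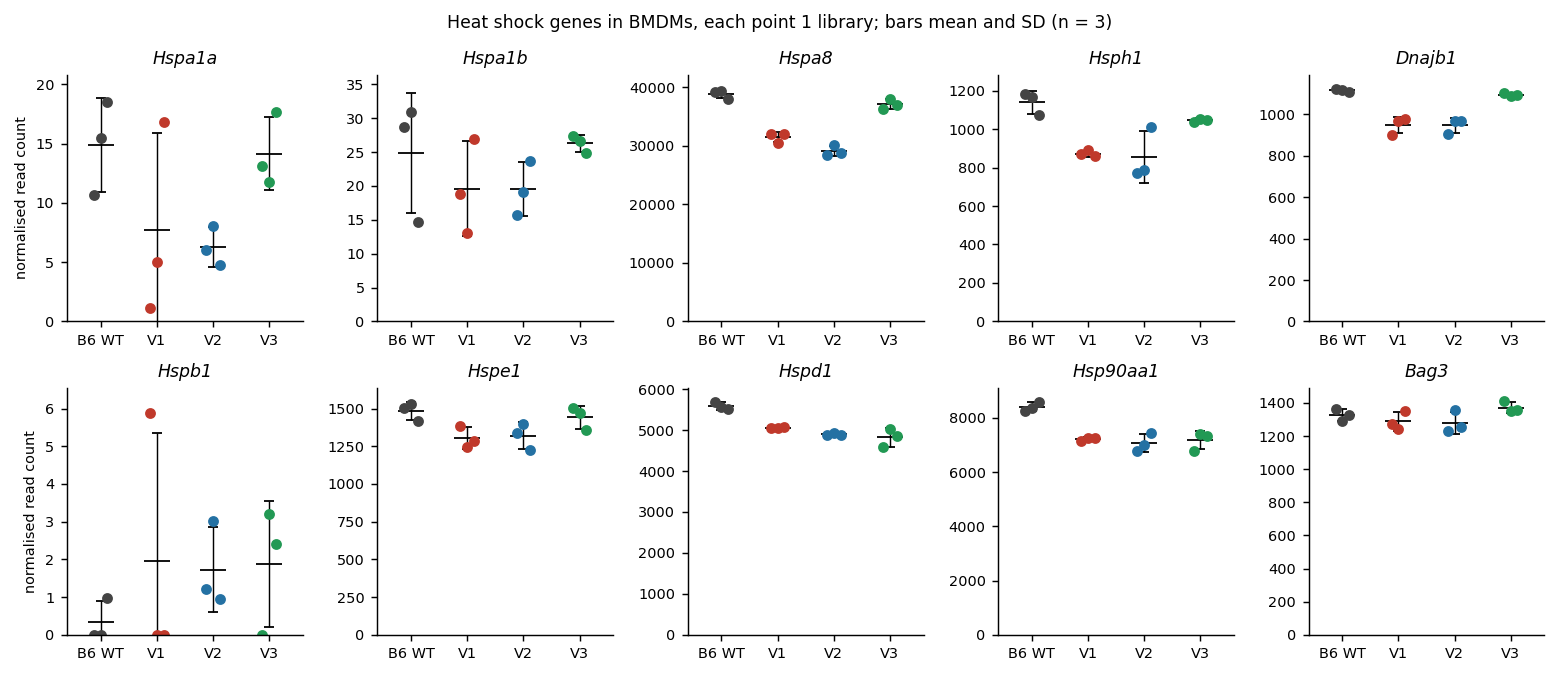
Normalised read count of each heat shock gene in the 12 BMDM libraries by genotype (linear axis from 0), with each library as a point and the group mean and SD as bars (n = 3). V1 and V2 lie below B6 WT for *Hspa8*, *Hsph1* and *Dnajb1* and V3 lies with B6 WT or just below it, whereas all 3 knockouts lie below B6 WT for *Hsp90aa1* and *Hspd1*.

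Between knockouts, V1 had no called difference from the average of V2 and V3 in BMDMs (0 of 9 by limma, edgeR and DESeq2, 1 at an unadjusted p under 0.05, against 0.991% of all genes called). That mean joins groups that stood apart, so the knockouts were also compared in pairs, a step added after the levels were seen. *Hspa8* and *Dnajb1* were lower in V1 than in V3 and lower in V2 than in V3 (2 of 9 genes each, against 1.19 and 1.74% of all genes lower). Between V1 and V2 0 of 9 passed (0.365% of all genes in either direction), with 1 gene at an unadjusted p under 0.05 and 0 calls by edgeR and DESeq2. The difference of *Hspa8* from V3 was -0.24 ± 0.05 in V1 (limma adjusted p = 0.0144) and -0.35 ± 0.05 in V2 (limma adjusted p = 0.00120). *Dnajb1* differed by -0.21 ± 0.05 (limma adjusted p = 0.0329) and -0.21 ± 0.05 (limma adjusted p = 0.0316). Each of these 4 calls except that of *Hspa8* in V2 was lost on leaving out some single library. For V1 the count of 2 was 0 without V1 replicate 2 or V3 replicate 2 or 3 and 1 without any of the others, and for V2 it was 1 to 3, with *Hsph1* gained without V2 replicate 3 (-0.42, limma adjusted p = 0.000855).

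Other stress genes moved with the same BMDM libraries. Of 17 ER chaperones and unfolded protein response genes, V1 had 10 lower, V2 had 10 and V3 had 0, and 0 were higher in any of them. Their median log2 difference was -0.22, -0.22 and -0.07. The counts of this and the following lists stand beside 3.15, 2.36 and 0.633% of all genes lower in V1, V2 and V3. The shares higher were 3.92, 2.24 and 0.537%, so few genes of any kind were called in V3. *Pdia6*, a disulfide isomerase, had 12248 normalised reads on average in B6 WT, 9793 in V1 and 9977 in V2 (log2 difference -0.32 ± 0.04 and -0.30 ± 0.04, limma adjusted p = 0.000364 and 0.00110). *Creld2* had -0.45 ± 0.05 and -0.36 ± 0.05, *Hsp90b1*, the HSP90 of the ER, -0.29 ± 0.04 and -0.29 ± 0.04, and *Manf* -0.35 ± 0.06 and -0.33 ± 0.06. Of the HSP90 list 5 of 14 were lower in V1, among them *Fkbp4* (-0.23 ± 0.04) and *Stip1* (-0.25 ± 0.06), a scaffold that joins HSP70 to HSP90, and 2 of 14 in V2, *Fkbp4* and *Chordc1*. *Cct6a* of the TRiC chaperonin was the 1 of 8 lower in V1 and in V3. *Hspbp1*, an HSP70 exchange factor, was the 1 of 5 in the list of heat shock factors and regulators, lower in V1 (-0.21 ± 0.05, limma adjusted p = 0.0150), and *Hspa14*, a ribosome-bound HSP70, was the 1 of 13 other HSP70, HSP110 and J proteins (-0.22 ± 0.06). Mitochondrial chaperones and proteases (9 tested) and small heat shock proteins (3 tested) had 0 calls in the comparisons with B6 WT. *Hsf1* itself had 671.4 ± 9.220, 704.9 ± 2.607, 685.8 ± 56.11 and 704.6 ± 28.60 (SD, n = 3 each) in the order B6 WT to V3 and was not called.

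Larger changes stood in the immediate early genes of the same libraries. *Fos* had 3038, 2377 and 2793 normalised reads in B6 WT, 388.7, 489.9 and 471.3 in V1, 520.4, 476.0 and 482.6 in V2 and 3025, 2235 and 1829 in V3. *Dusp1* had 1995 to 2322, 257.2 to 291.3, 249.1 to 313.0 and 1332 to 1965. Both genes thus divided the 4 genotypes as *Hspa8* and *Dnajb1* did, with V1 and V2 low. *Dusp1* in V3 was also below every B6 WT library, as *Dnajb1* was. Of 18 immediate early genes, 9 were lower and 3 higher (*Egr2*, *Egr3* and *Atf3*) in V1, 7 lower and 1 higher (*Atf3*) in V2, and 0 in either direction in V3. Among all genes 3.15, 2.36 and 0.633% were lower and 3.92, 2.24 and 0.537% higher. The median log2 difference of the 18 genes was -0.43, -0.12 and 0.06. *Cirbp*, which mild cold raises, had 301.6 to 334.1 in B6 WT, 449.8 to 498.3 in V1, 423.4 to 575.9 in V2 and 325.4 to 338.6 in V3 (log2 difference 0.58 ± 0.10 and 0.71 ± 0.10 in V1 and V2, limma adjusted p = 0.00529 and 0.00179), and *Rbm3* was not called. B6 WT libraries had 21187031 to 24869776 reads on genes, V1 libraries 17560871 to 20337419, V2 libraries 16629659 to 20979716 and V3 libraries 18853659 to 25653814. Whether culture handling, harvest or depth has a part in the heat shock values was not tested. Lens and blood markers were near 0 in all BMDMs, with summed values of at most 5.706 and 4.933.

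In RPE 0 of 18 immediate early genes passed in each knockout. Their median log2 difference from B6 WT was 0.53 in V1, -0.01 in V2 and -0.13 in V3. *Fos* had 144.4 to 440.8 in B6 WT RPE (median 216.6) and 229.4 to 691.5 in V1 (median 558.0). None of the 9 other stress gene lists had a called gene in any RPE comparison between genotypes, where 0.0690 to 0.388% of all genes were called.

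**Figure D5:**
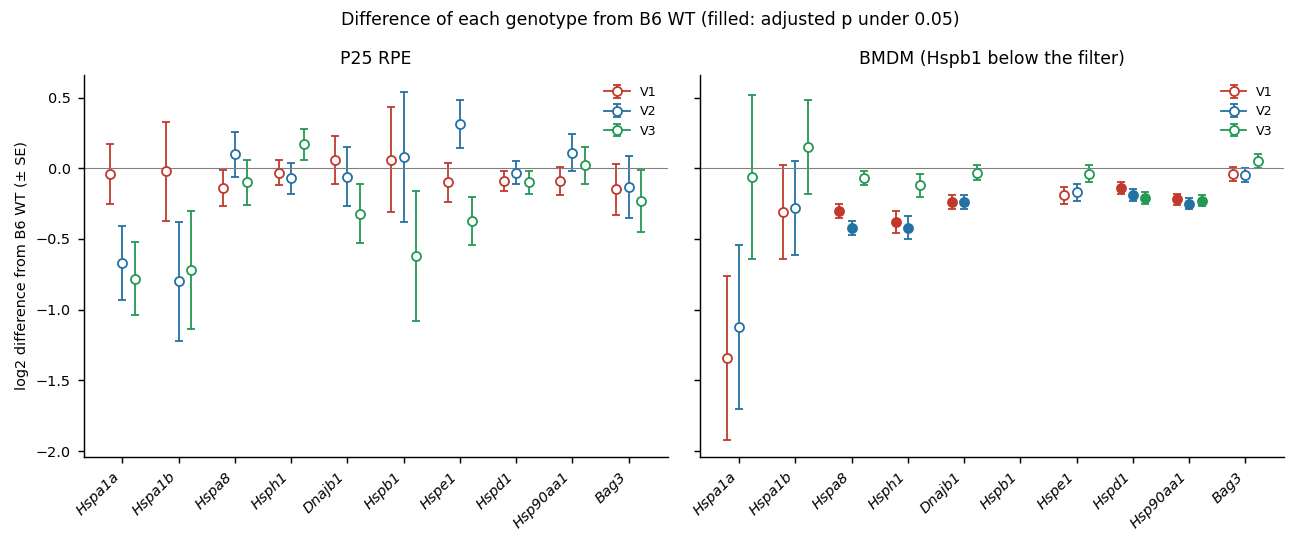
Log2 difference of each knockout from B6 WT with its standard error for each heat shock gene, in P25 RPE (left) and BMDMs (right), where filled points have an adjusted p under 0.05. In RPE no point is filled and the errors are wide, and in BMDMs the filled points lie between -0.42 and -0.14.

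The members were also set beside each other across libraries, as a description over samples that share genotype and replicate set. In RPE, with genotype means removed, Pearson correlations of log2 values over 18 libraries were 0.93 for *Hspa1a* with *Hspa1b*, 0.89 for *Hspb1* with *Bag3* and 0.88 for *Hspa1b* with *Dnajb1*. *Hsph1* ran against most of the others (-0.80 with *Bag3* and -0.46 with *Hspa1b*). The median of the 45 pairs was 0.53, and 32 were above 0. In BMDMs the median of 36 pairs was 0.54 before and 0.12 after genotype means were removed, over 12 libraries. *Hspa8* with *Dnajb1* went from 0.92 to 0.07, so what these 2 genes shared in BMDMs lay between genotypes and not between replicates.

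Outside the 10 genes, those with the pattern most like the mean of the standardised log2 values of the tested members (Pearson correlation, genes with a mean of at least 100) were, in RPE over 18 libraries, *Crk* (0.939), *Ube2s* (0.935), *Hnrnpf* (0.934), *Eif4a1* (0.927), *Copb2* (0.927), *Tubb4b* (0.926), *Rack1* (0.923), *Psmd12* (0.922), *Emd* (0.920) and *Dstn* (0.919). In BMDMs over 12 libraries they were *Hnrnpm* (0.980), *Atp5a1* (0.968), *Mrpl28* (0.966), *Eef1d* (0.964), *Eef1g* (0.962), *Atp5d* (0.960), *Ldha* (0.952), *Fzr1* (0.951), *Mdh1* (0.951) and *Ska3* (0.949). These were the highest of 13083 and 9815 genes, and no chaperone was among them.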

How the data were processed

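The 10 genes, the lists beside them and the tests were chosen with earlier results of these data known. The RNA-seq libraries of RPE and BMDMs were trimmed with btrim, mapped with STAR to GRCm38 and handled with DESeq2 by the authors, who deposited for each tissue a table of gene signal, the count of a gene divided by a size factor of the library. The submitters' processing notes name STAR and DESeq2, and the read counter, annotation release, tool versions and the use of strand are not given in the sources used here. The deposited signal was taken as it stood. Reads were recovered from its steps, within 0.1 read of a whole number for 100% of the values, and were used for depth, RPKM, edgeR and DESeq2.

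Groups came from the labels, which name the samples biological replicates without saying which animals they came from, so p-values measure the spread between these samples. The main test was limma 3.58.1 (eBayes with a trend, R 4.3.3) on log2(signal + 1), a scale that understates the change of low genes, with B6 WT and the 3 knockouts fitted together in each tissue, genes with a mean of at least 10 (18832 in RPE and 13420 in BMDMs) and Benjamini-Hochberg adjustment over all genes tested. A gene was called at an adjusted p under 0.05. RPE replicates 4 to 6 were compared with 1 to 3 in B6 WT and *Mertk*-/-V1 with genotype in the model. Alternatives were the fold threshold of the study (1.25 on the log2 scale), a pseudocount of 5, no filter, edgeR 4.0.16, DESeq2 1.42.0, array quality weights, *Hspa1a* and *Hspa1b* summed, only the groups compared in the model, the replicate number as a block, each set of replicates alone, the set as a term and each library left out in turn. Same-numbered B6 WT and *Mertk*-/-V1 RPE libraries deviated together (correlations of deviations from the group mean 0.119 to 0.724 in 6 of 6 pairs), which by the rule applied here pairs them. The difference between sets enters these correlations, so they do not show pairing by number. The RPE sets were also fitted with the number as a random block and on averages per number, and no other groups were paired. The tests were checked on simulated data with independent libraries, the same dispersion for every gene and changes in *Mertk*-/-V1 only. That check held no difference between replicate sets and no mixture of tissues, so it does not cover these features of the RPE libraries.

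The named genes were the 10 members and *Mertk*, the heat shock factor, immediate early and cold-inducible genes, at most 4 called genes of each other list and, per tissue, the 10 genes most like the members. Gene positions came from GENCODE mouse release 21 (GRCm38), which matched 55480 of 55573 identifiers, and promoter sequences from RefSeq on GRCm38.p6. A count of 0 allows up to 3 reads, for counting error only. Measurements other than RNA-seq are not analysed here.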

Additional observations from a re-analysis of the deposited data

Results flagged for a closer look

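*Hsp90aa1* in B6 WT RPE replicate 2 had 40363 normalised reads, farther from the other 5 B6 WT libraries (34347 to 36591) than a sample of 6 usually lies, with a gap of 0.627 of the whole range against a critical value of 0.625. It was 1 of 20 groups examined, and about 1 in 20 is flagged by chance.

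For 4 genes all libraries of a knockout lay on one side of the B6 WT mean in RPE and on the other side in BMDMs, a difference between the tissues that was not tested. In *Mertk*-/-V2, *Hspa8* differed from B6 WT by 0.10 on the log2 scale in RPE and by -0.42 in BMDMs, and *Hspe1* by 0.31 and -0.17. In *Mertk*-/-V3, *Hsph1* differed by 0.17 in RPE and -0.12 in BMDMs, and *Bag3* by -0.23 and 0.05. Of these, the *Hspa8* difference in BMDMs was the one past the threshold of its own test.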

How the results depend on the processing

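The alternatives were run on the count of heat shock genes called and on each gene. Of 1840 gene values 1722 kept their side of the threshold, 73 lost and 45 gained a call, and 0 changed sign while called. Counts that moved by more than 1.5 times were these. With the fold threshold of the study 0 heat shock genes were called in any comparison, RPE sets included. That rule called 9.24% of all genes for the RPE sets. It called 0.0584 to 0.149% in the RPE comparisons between genotypes and 0.134 to 0.425% in those of BMDMs. In RPE, array quality weights gave 2 genes for V2 against B6 WT, 8 for V3 against B6 WT and 5 for V1 against the mean of V2 and V3, in place of 0, while calling 4.57, 66.9 and 28.9% of all genes. The replicate number as a block gave 1, 6 and 4 for the same 3 comparisons, with 3.75, 29.8 and 12.4% of all genes. The numbers do not pair these groups, and the block ties V2 and V3 to the B6 WT and V1 libraries numbered 1 to 3. It changed no call for V1 against B6 WT, where the rule applied here pairs the numbers (0 of 10 either way). B6 WT replicates 1 to 3 alone gave 4 for V3 (21.7% of all genes called). The RPE sets gave 0 in B6 WT alone, 0 in V1 alone and, added after seeing the data, 0 with same-numbered libraries averaged, in place of 6, and each of these fits of 3 against 3 called 0 of all 18832 genes; the number as a random block, also added, kept 6. In BMDMs a model of only the groups compared gave 1 for V2 in place of 5, with 0.224% of all genes lower in place of 2.36%. The block gave 1 in place of 2 for V3 against B6 WT, for V1 against V3 and for V2 against V3. It called 0.283, 0.730 and 1.02% of all genes lower there, in place of 0.633, 1.19 and 1.74%. The cause of these shifts was not tested, beyond the smaller number of samples in some fits. Leaving out 1 library at a time gave 0 to 0 genes for each RPE knockout against B6 WT, 0 to 1 for V1 against the mean of V2 and V3, 5 to 8 for the RPE sets, and in BMDMs 1 to 4 for V1, 2 to 5 for V2, 0 to 1 for V3, 0 to 1 for V1 against V3, 1 to 3 for V2 against V3, and 0 to 0 for V1 against V2 and for V1 against the mean of V2 and V3. Among genes uncalled in both fits, 88 values changed sign. Depth limits *Hspa1a*, *Hspa1b* and *Hspb1* in BMDMs, where a library held few reads of each.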
